A study of Drosophila melanogaster with 4 samples.

Results

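Distal intronic Gug regions are sites of Gug-eGFP binding that lie inside a protein-coding gene, outside every annotated exon, and more than 1000 bp from the transcription start site (TSS) of any protein-coding gene. They numbered 654 of the 2643 regions called in at least 2 of 4 replicates (24.7%). The data came from chromatin immunoprecipitation and sequencing of whole Drosophila melanogaster embryos aged 0 to 24 h, in 4 biological replicates of 1 group. Per the labels, the embryos were of a transgenic strain with a Gug-GFP insertion, the fusion protein carried eGFP, and precipitation used an antibody against GFP. The window mixes all embryonic tissues and stages, so binding in few cells and weak binding in many cells cannot be told apart, and neither expression nor an untagged strain was measured here.

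Members were found from positions alone. Peak summits of the 4 deposited thresholded lists (peaks that passed the authors' irreproducible discovery rate threshold) were joined when neighbouring summits lay within 200 bp, and the median summit gave each region's place on the dm6 build. The lists held 1948, 3786, 2117 and 2450 peaks for replicates 1 to 4, and 478, 576, 433 and 520 of the members were called in them. In the single lists, 24.6% ± 2.64 (SD, n = 4) of peaks were distal intronic. Read depth is unknown, because the files hold peaks and no read counts.

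Gug, or Grunge, is the fly Atrophin, a nuclear co-repressor that is brought to its target genes by DNA-binding proteins, the nuclear receptor Tailless among them. Introns of developmental genes in flies often hold enhancers, stretches of DNA bound by transcription factors that set where and when a gene is expressed. Early introns, above all the first, are the usual place for such elements within a gene.

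The strongest members show what such a region looks like, and 4 of them are printed because each had the highest mean signal rank of the members on its arm. Each run is 201 bases of the plus strand of dm6 centred on the summit, and capitals mark ACAGTG or its reverse complement CACTGT, the 6-base word described with the sequence results, which among these 4 occurs only in the tara region. The ush region covers chr2L:481001-481201, the CG32772 region chrX:4910232-4910432, the CG32486 region chr3L:3060671-3060871 and the tara region chr3R:16236914-16237114.
ush: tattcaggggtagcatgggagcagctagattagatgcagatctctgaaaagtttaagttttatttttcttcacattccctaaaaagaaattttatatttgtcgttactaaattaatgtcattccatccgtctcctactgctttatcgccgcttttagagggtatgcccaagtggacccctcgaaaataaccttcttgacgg
CG32772: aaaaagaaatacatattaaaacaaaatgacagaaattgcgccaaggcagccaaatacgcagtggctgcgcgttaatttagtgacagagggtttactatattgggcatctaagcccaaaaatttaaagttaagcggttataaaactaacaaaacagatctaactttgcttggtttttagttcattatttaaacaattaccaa
CG32486: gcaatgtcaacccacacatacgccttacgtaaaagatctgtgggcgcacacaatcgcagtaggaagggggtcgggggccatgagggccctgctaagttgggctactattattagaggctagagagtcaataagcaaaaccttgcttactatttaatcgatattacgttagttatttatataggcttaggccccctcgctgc
tara: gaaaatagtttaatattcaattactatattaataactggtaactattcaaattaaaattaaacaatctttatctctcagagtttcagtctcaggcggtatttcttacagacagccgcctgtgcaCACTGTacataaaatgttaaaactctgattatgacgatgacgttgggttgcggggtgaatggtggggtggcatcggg

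Signal was given by the authors for each peak and is comparable only within a list, so it is used here as a percentile of the list. The leading member lay in the first intron of ush, which encodes the zinc-finger cofactor U-shaped, a partner of GATA factors (2L, 480911 to 481273). Its percentiles were 99.8, 99.9, 99.9 and 99.9 in replicates 1 to 4. It also lay 1413 bp from the TSS of the neighbouring gene cbt (the Cabut gene, for a zinc-finger factor), nearer than any TSS of ush. CG11050 held the next one, at percentiles 98.4, 99.7, 99.5 and 99.4 (2L, 6612555 to 6612880). Its summit lay inside an intron of 140 bp (6612641 to 6612780), the shortest of all introns that held a member. The called region itself ran past both ends of that intron. The region in the first intron of CG32772 reached 98.9, 99.6, 99.1 and 98.98 (X, 4910061 to 4910545). All 3 stayed above the 98th percentile in each of the 4 lists.

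Genes of kinases and of transcription factors stood among the hosts of the 20 leading members. Tlk, which encodes Tousled-like kinase, held a region at a mean percentile of 98.3 ± 0.549 (SD, n = 4), 2345 bp from its TSS in a first intron of 41450 bp. Raf, the kinase that links Ras to MAP kinase, held 2 of the 20, at 97.2 ± 1.12 and 95.3 ± 2.03 (SD, n = 4 each), both in its second intron of 43637 bp. Hr3, an ecdysone-induced nuclear receptor gene, held a region at 97.7 ± 0.643 (SD, n = 4) that lies in a first intron and also within the spans of CG12912 and CG46321. Trl, which encodes the GAGA factor, followed at 96.9 ± 1.28 (SD, n = 4), with a GC content of 25.4% within 100 bp of the summit. The other hosts in this set were CG32486, CG3726, CG8745, norpA, Gug, tara, NFAT, mnb, CG12769, CG9837, for and Csk. Of these, norpA encodes a phospholipase C of phototransduction, mnb and for encode protein kinases, Csk encodes a kinase that acts on Src, and NFAT encodes a Rel-family transcription factor. The lowest mean percentile among the 20 was 94.0, and all of them lay above the 90th percentile in each list.

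**Figure D1:**
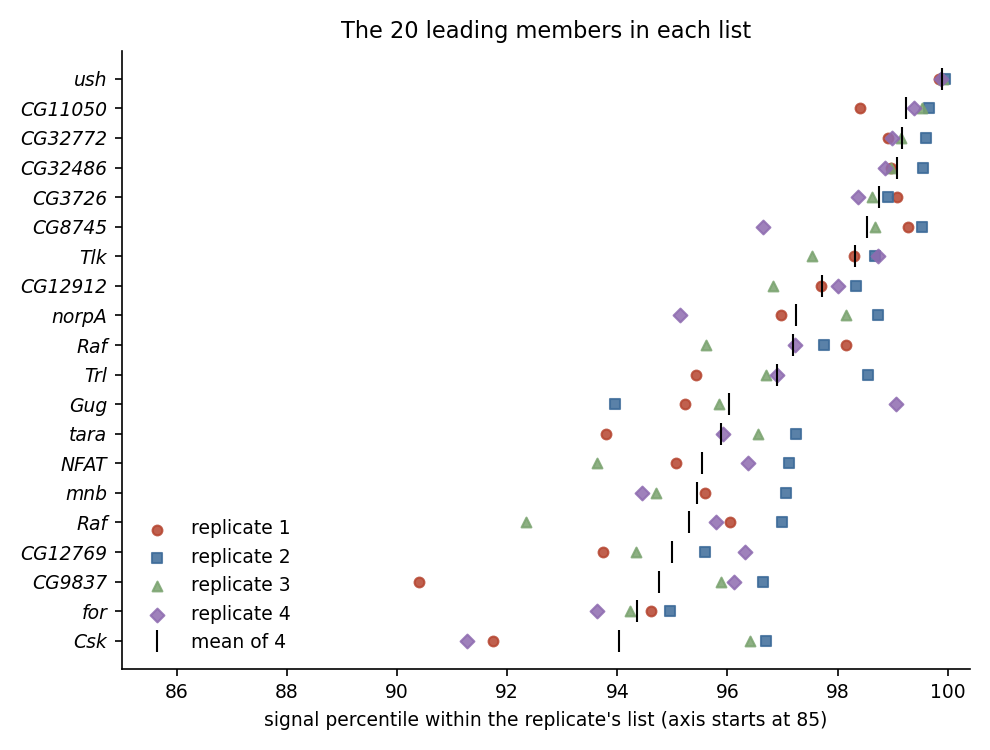
Signal percentile (x axis, within the replicate's own list, starting at 85) of the 20 leading members by host gene (rows), with 1 symbol per replicate and a bar at the mean of 4. Every value lies above 90, and the SD over replicates ran from 0.043 for ush to 2.93 for CG9837 and Csk.

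Gug itself held 2 members, both in its first intron of 11514 bp and both called in all 4 lists. The weaker one had a mean percentile of 67.2 (3L, 8455369 to 8455876), and the stronger one had 95.2, 94.0, 95.8 and 99.1 in replicates 1 to 4 (3L, 8458204 to 8458474). An inserted copy of Gug can add DNA of this locus to the libraries. Control libraries were not analysed here, and the part of the transgene in these 2 regions was not tested.

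The limit of 1000 bp fell within a continuous range of distances. Just inside it lay members in C3G (1002 bp, X, 6794198 to 6794530), Fili (1005 bp) and Ack (1016 bp), with mean percentiles of 63.0, 36.4 and 26.5. Just outside it lay intronic regions of Ncoa6 (992 bp), drongo (990 bp) and the overlapping genes Hyls1 and chif (989 bp), at 46.6, 64.5 and 90.3.

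As a class the members were weaker than the other regions. Their mean percentile was 50.6 ± 2.99, against 56.2 ± 4.78 for all other regions (SD, n = 4 lists each). The difference was -5.63 ± 3.25 percentile points and members were lower in 4 of 4 lists, which gives p = 0.125 in an exact 2-sided permutation test that flips the signs of the 4 differences. That is the smallest p that 4 replicates allow, so no comparison of this kind could reach 0.05. Among the strongest 25% of a list stood 21.5% ± 2.81 of member peaks, against 32.3% ± 5.57 of other peaks. Against distal intergenic regions alone the difference was -1.53 ± 0.583 percentile points. Members of first introns were stronger than members of later introns in 4 of 4 lists (52.2 ± 2.48 against 47.4 ± 4.39, SD, n = 4, exact permutation p = 0.125).

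Recurrence was slightly below that of all regions. All 4 lists called 268 members (41.0%), against a background of 44.3% over all regions, 3 lists called 163 and 2 lists called 223. Of the members absent from a replicate's thresholded list, between 85.9% and 96.3% had a summit within 200 bp in that replicate's longer ranked list. For all other regions the share was 82.4% to 90.8%, and in replicate 3 it was above that of members (90.8% against 87.3%). The ranked lists held 32752 to 49135 peaks, and how often a summit falls nearby by position alone was not tested. With ranked lists counted, 601 members (91.9%) were found in all 4 replicates, against 91% of all regions. In the authors' conservative set 535 members (81.8%) had a summit within 200 bp, against 87.2% of all regions, and in their largest set 644 (98.5%), against 97.9%.

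Members gathered in first introns. A first intron of at least 1 protein-coding transcript held 435 members (66.5%), and the single lists gave 66.5% ± 2.29 (SD, n = 4). Of all distal intronic bases of the genome, 40.6% lie in such introns. The density was therefore 23.5 members per Mb in first introns, 13.1 in second introns (148 members), 5.92 in introns of rank 3 or 4 (42 members) and 3.33 in later ones (29 members). All 4 lists lay above the base share for rank 1 and below it from rank 2 on. The share depends on how transcripts are counted: ranked in the longest transcript over each position, 45.4% of members and 27.2% of bases lay in a first intron, or 23.9 members per Mb against 10.8 in later introns.

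**Figure D2:**
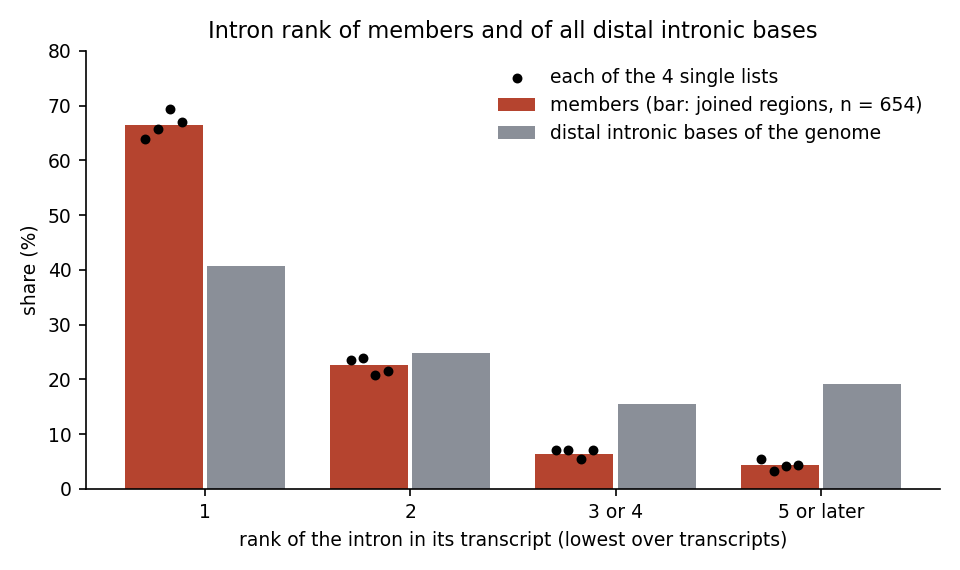
Share (y axis, %) of the 654 members and, beside it, of all distal intronic bases of the genome by intron rank (x axis, lowest rank over protein-coding transcripts); points are the 4 single lists. Members exceed the bases only at rank 1, with 66.5% against 40.6%.

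First introns start near TSSs, and members were denser there: 32.0 per Mb at 1000 to 1500 bp from the nearest TSS, 18.5 at 3000 to 5000 bp and 4.38 beyond 20000 bp. The median distance was 3644.5 bp (quartiles 1848 and 7640.5), against 7327 bp over all distal intronic bases. Rank and distance were therefore set against each other. At 1000 to 1500 bp, first introns held 42.0 members per Mb and later introns 13.2. At 10000 to 20000 bp the densities were 11.2 in first introns and 7.12 in later ones, and beyond 20000 bp they were 11.6 and 3.10. First introns stood above later introns in all 7 distance classes.

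**Figure D3:**
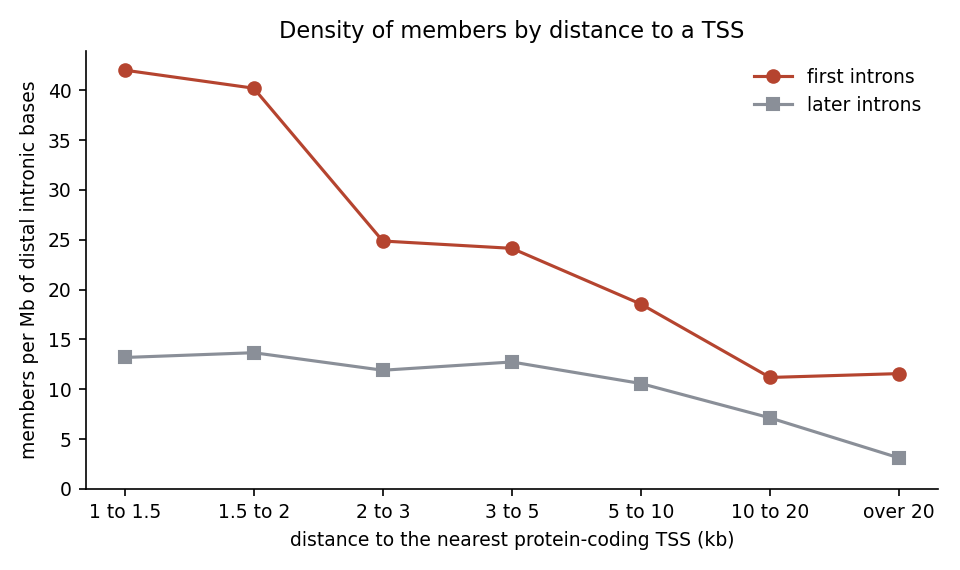
Members per Mb of distal intronic bases (y axis) in first introns and in later introns, by distance to the nearest protein-coding TSS (x axis, kb). First introns lie above later introns in every class, from 42.0 against 13.2 at the shortest distance to 11.6 against 3.10 at the longest.

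The introns were long, but less so than distal intronic sequence in general. The median length of the intron around a member was 11979 bp (quartiles 5557 and 25255, longest 126467), against 15030 bp over all distal intronic bases. Density was highest in introns of 2500 to 5000 bp, at 22.1 members per Mb, and was 7.53 in introns above 40000 bp. Only 7 members lay in introns of up to 1000 bp, at 2.22 per Mb. Within their introns, 58.6% of members lay nearer the 5′ than the 3′ end, against 49.7% of bases. The summit of 22 members lay within 200 bp of an end of the intron used for rank. Exons of other transcripts or genes inside that intron were not counted. For 525 members (80.3%) the nearest TSS belonged to a host gene, and for the other 129 it belonged to a different gene, as for cbt at the ush region. Also, 26 members lay within 1000 bp of the TSS of a gene that is not protein-coding.

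Host genes were few and large. The members lay in 448 genes, 6.41% of the 6990 protein-coding genes that have any distal intronic base, and 24 members lay in several overlapping hosts. Hosts had a median length of 26107.5 bp, against 4897 bp for all 6990 genes, and a median of 14763.5 bp of distal intronic sequence, against 595.5 bp. Of the genes with more than 50000 bp of it, 38.6% were hosts, against 0.176% of those with up to 1000 bp. Many large genes held none, since 113 of the 184 genes in the largest class were without a member. The longest of these were Myo81F, lovit, DIP-lambda and CG17684, then bru3, the Y-linked genes Ppr-Y, WDY and kl-3, and Snap25 and Rbp6. Per Mb of distal intronic sequence, members were densest in genes with 1000 to 5000 bp of it (28.0 region and host pairs per Mb). The density was 6.86 in genes with over 50000 bp and 6.59 in those with up to 1000 bp.

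Hosts were also bound at their promoters more often than other genes. A region within 1000 bp of a TSS of their own was found for 161 hosts (35.9%), against a background of 20.8% of all genes with distal intronic bases. By amount of distal intronic sequence the shares were 34.4% of hosts and 20.2% of other genes up to 5000 bp, 35.4% and 19.4% from 5000 to 20000 bp, and 37.1% and 14.4% above that. Genes are not replicates, so these shares carry no test.

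Several members in the same gene were common. While 313 hosts held 1 member, 135 held 2 or more, which is 30.1% of hosts and 1.93% of all genes with distal intronic bases. Those 135 held 358 members (54.7%). Neighbouring members of a host lay a median of 5100 bp apart (231 spacings, 399 to 231528 bp), and 36 spacings were shorter than 1000 bp. A longer gene has more room for members, and several-region hosts had a median of 27736 bp of distal intronic sequence. With all 4 lists required, 39 genes held several.

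The 10 genes with 5 or more members held 70 of them (10.7%). Raf led with 9 members in a single intron (X, 2295466 to 2343870), or 360 per Mb of its distal intronic sequence, and 5 of the 9 were called in all 4 lists. The forkhead gene CHES-1-like (X, 7682338 to 7709385) and tara (3R, 16225651 to 16260329), which encodes the transcriptional co-regulator Taranis, held 8 each, all in first introns and at 673 and 284 per Mb. Hr4, a nuclear receptor gene of the ecdysone cascade (X, 1941940 to 2007956), held 7 in introns 1 to 4, and 6 of these were in all 4 lists, the largest number of any host. Its strongest member reached a mean percentile of 93.7. The zinc-finger gene shn of the Dpp pathway (2R, 11159086 to 11217394), the co-repressor gene sbb (2R, 18278198 to 18357296) and kirre, an adhesion gene of myoblast fusion (X, 2740384 to 3134532), held 7 each. In kirre the members were less dense than in Raf, CHES-1-like and tara, at 23.8 per Mb of its 293671 bp of distal intronic sequence. That is above the 14.3 per Mb over all genes and the 6.86 of genes with over 50000 bp. In kirre 2 of the members also lay within CG32795. CG1677 (X, 7281089 to 7405797) and Tlk (X, 3720007 to 3789770) held 6 each, and ush (2L, 476220 to 540560) held 5. For every member of CG1677 the nearest TSS was that of another gene, namely unc-119, brk or CBP. The same was true of some members of Raf, sbb, kirre and ush.

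Strength varied widely within these hosts. Members of ush ran from a mean percentile of 41.5 to 99.9, those of tara from 12.8 to 95.9 and those of Tlk from 12.4 to 98.3. Each mean covers only the lists that called the member. The lowest members of ush, tara and Tlk were called in 2 lists each and that of Raf in 3. The lowest member of Raf stood at 47.2, above the lowest of the other 9 genes. Its 2 strongest members lay 2270 and 5247 bp from a TSS, and the other 7 had means from 47.2 to 58.3. Hr4 held a run of 4 members in its first intron of 10387 bp, with mean percentiles of 47.8, 76.4, 77.9 and 83.4 in order from the 5′ end. The strongest member of Hr4, in the next intron, had 95.6, 93.6, 91.9 and 93.7 in replicates 1 to 4. Its single member missed by replicates 3 and 4 was also its weakest, with percentiles of 13.1 and 4.17 in replicates 1 and 2. In CHES-1-like 2 strong members, at 89.2 and 88.0, stood among 6 with means of 61.5 and below. In tara 2 neighbouring members at 85.1 and 95.9 lay in the intron of 30338 bp, and each was called in all 4 lists.

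Replicates placed some members far apart. The CG1677 region at X, 7293067 to 7293366, had percentiles of 84.7, 35.4, 22.7 and 85.8 in replicates 1 to 4. The Tlk region at X, 3774279 to 3774618, had 11.2, 78.6, 72.4 and 32.7. In contrast the Hr4 region at X, 1951794 to 1952097, had 80.6, 76.9, 77.2 and 76.9. Middle ranks therefore varied more between lists in some members than in others.

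Of the 11 genes with 4 members, Kdm2 (3R, 9052495 to 9063245) had the largest number called in all 4 lists, namely all 4 of them. It encodes a histone demethylase, and its 4 members lay within 4007 bp of distal intronic sequence. Their mean percentiles were 54.7, 35.6, 49.3 and 43.6 from the 5′ to the 3′ end, all in the middle of the lists. In cv-c and Drak none of the 4 was called in all 4 lists. The other hosts of 4 were Snoo, gpp, Hipk, msn, Mnt, simj, Evi5 and Socs36E. Of these, gpp encodes the histone H3 lysine methyltransferase Grappa, Hipk and msn encode protein kinases, Mnt a bHLH repressor, simj a subunit of the NuRD complex and Socs36E an inhibitor of JAK/STAT signalling.

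**Figure D4:**
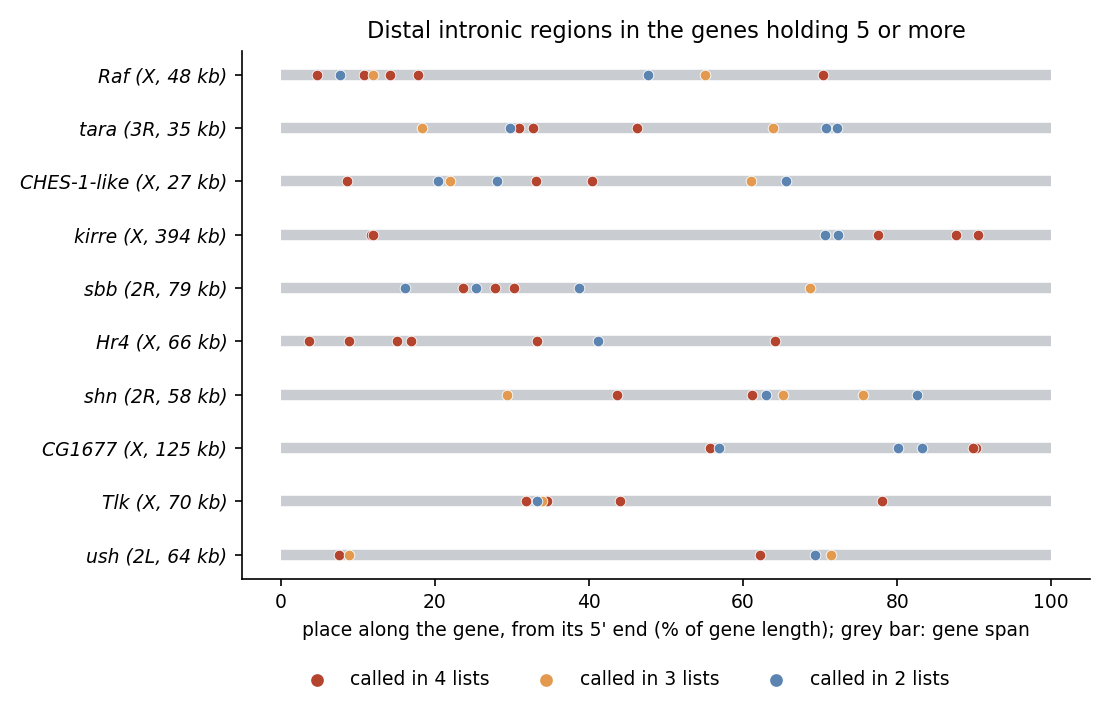
Place of each member along its host (x axis, % of gene length from the 5′ end) in the 10 genes with 5 or more members (rows, with chromosome and length); colour gives the number of lists that called it. In Raf 6 and in Hr4 4 members lie in the first 20% of the gene, whereas those of CG1677 all lie beyond 50%.

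The X chromosome held 182 members (27.8%), with 18.3% of all distal intronic bases. That is 21.8 members per Mb on X, against 13.1 on the arms 2L, 2R, 3L and 3R, where the range was 12.7 to 13.5. The ratio of X to autosome arms was 1.92, 1.68, 1.76 and 1.55 in the single lists, or 1.73 ± 0.155 (SD, n = 4), and above 1 in all 4 lists (exact permutation p = 0.125 for the log ratio). Peaks of all other classes, per Mb of all other sequence, gave 1.02 ± 0.0917 (SD, n = 4), and the member ratio exceeded theirs in every list (exact permutation p = 0.125). Of the promoter-proximal regions (summit more than 200 and up to 1000 bp from a TSS) 21.2% were on X, of the core promoter regions (summit within 200 bp) 14.97% and of the distal intergenic regions 14.7%. In the single lists the share on X was 28.5% ± 1.81 for members and 22.2% ± 2.00 for promoter-proximal regions (SD, n = 4). Of the 10 genes with 5 or more members 6 are X-linked, and without the members of those 10 genes the ratio was 1.35. Among genes with distal intronic bases, 8.88% of those on X were hosts (105 of 1182), against 5.98% on the autosome arms (342 of 5723). Those on X had a median of 833 bp of distal intronic sequence, against 538 bp on the autosome arms. The share of hosts rises with that amount, and its part in this difference was not tested. Members on X were called in all 4 lists more often (50% against 37.6%), and their mean percentile was higher in 4 of 4 lists (52.3 ± 2.81 against 49.8 ± 3.20, SD, n = 4, exact permutation p = 0.125). The share in first introns was 61.5% on X and 68.6% on the autosome arms. The sex of the embryos was not recorded, and males carry fewer X chromosomes than females. The part of X copy number in the ratio was not tested. Chromosome 4 held 0 members and Y held 1, in kl-5.

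Hosts were then read against 17 lists of genes grouped by role. Of all genes with distal intronic bases 6.41% were hosts, and region and host pairs numbered 14.3 per Mb. In every list the median gene had more distal intronic sequence than the 595.5 bp of all such genes, so the share of hosts is given with the density. Density itself depends on that amount: it fell from 28.0 pairs per Mb in genes with 1000 to 5000 bp to 6.86 in those with over 50000 bp. The value over all genes is therefore not a background matched for gene size. Of the 531 listed symbols 1 (dys) was not matched, and 9 were matched through an older name.

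All 5 lists of transcription factor genes had a larger share of hosts than all genes, but that share also rises with distal intronic sequence. Of genes with 5000 to 10000 bp of it 12.4% were hosts, with 10000 to 20000 bp 20.8% and with 20000 to 50000 bp 27.5%. The zinc-finger list (12%, median 5263 bp) and the homeodomain list (17.1%, median 12433 bp) were not above genes with similar amounts. The BTB list (57.9%, median 30987 bp) and the bHLH list (34.1%, median 10970 bp) were above them. For nuclear receptors (31.25%, median 19481 bp) the median lay next to the limit of 20000 bp, where the share passes from 20.8% to 27.5%. Their share rests on 5 of 16 genes, so it is not read as above that of similar genes. A median does not match a list gene by gene. Among BTB and ecdysone-response factors 11 of 19 (57.9%, 22.2 pairs per Mb) were hosts, with 2 members each in Trl, luna, ken and the ecdysone-induced Ets gene Eip74EF, while br and ab held 0. Of the nuclear receptors 5 of 16 (35.8 per Mb) were hosts: Hr4 held 7, Hr3 and Eip75B 2 each and the ecdysone receptor gene EcR 1, while svp and Eip78C held 0. Of bHLH, Sox, forkhead and other factors 14 of 41 (45.5 per Mb) were hosts, among them CHES-1-like with 8, crp with 3, and the Ets repressor gene aop and the hypoxia factor gene sima with 2 each, while foxo and Sox102F held 0. GATA, Krueppel-like and other zinc-finger genes had 3 hosts of 25 (47.5 per Mb): shn, ush and zfh1, the last with a single member at a mean percentile of 90.2, while grn and klu held 0. Homeodomain genes stood near the density of all genes, with 7 hosts of 41 (15.03 per Mb), including hth, Antp, ct and inv with 2 each, while pros and nub held 0.

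Genes of co-repressors and chromatin regulators had the highest densities. Of Atrophin and other co-repressors 5 of 16 were hosts at 111 per Mb, with 8 members in tara, 3 in Smr, 2 in Gug and 1 each in Mi-2 and Sin3A, while HDAC4 and Kr-h1 held 0. Smr encodes a nuclear receptor co-repressor and Mi-2 a nucleosome remodeller. tara alone held 8 of the 15 pairs of this list. Of Polycomb and trithorax group genes 6 of 28 (64.7 per Mb) were hosts, with 3 members each in trx, kis and tna and 2 in osa, while jing and skd held 0.

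Signalling lists had between 20.8 and 46.2 pairs per Mb. Hosts were 8 of 32 receptor tyrosine kinase and Ras pathway genes (46.2 per Mb), of which Raf alone held 9 of 18 pairs, S and the ligand gene ths 2 each and edl 1, while bnl and vn, which encode ligands, held 0. In the Dpp and activin pathways 6 of 16 (46.0 per Mb) were hosts, with 2 members in the secreted antagonist gene sog and 1 each in the receptor gene wit, in cv-2 and in the inhibitory Smad gene Dad, while tok and Mad held 0. The Fat, planar polarity and Hippo lists had 4 hosts of 16 (26.5 per Mb), with 2 members each in the kinase gene wts and in kibra and 1 each in ex and dachs, while ds and app held 0. Wnt and Hedgehog genes had 7 of 28 (22.7 per Mb), with 2 each in the glypican genes dlp and dally and in the receptor gene fz and 1 in nkd, while fz2 and sgg held 0. The Notch pathway had 3 of 15 (20.8 per Mb), with 2 each in the co-activator gene mam and in N itself and 1 in neur, while kuz and fng held 0.

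Structural and neuronal lists included the lowest densities. Since density falls in genes with much distal intronic sequence, the part of gene size was not tested here either. Cytoskeleton, polarity and muscle genes had 10 hosts of 42 (20.02 per Mb), with 3 members in pyd, 2 in cno and 1 each in spir and ena, while sdt and shot held 0. Axon guidance and adhesion genes had 11 of 57 (10.04 per Mb), with 7 members in kirre, 3 each in the integrin gene mew and in Ten-a and 2 in NetA, while Con and CadN held 0. RNA-binding regulators had 6 of 30 (6.11 per Mb), with 2 each in shep and Rbfox1 and 1 each in fne and how, while bru3 and mbl held 0. Ion channel and synapse genes had 2 of 40 (5%, 2.78 per Mb), namely dnc with 2 and Ca-alpha1T with 1, while Sh and nAChRalpha6, each with over 50000 bp of distal intronic sequence, held 0. Regulators of germ layers, trachea, gut and haemocytes had 4 of 22 (31.1 per Mb), ush, zfh1, how and ttk, while bnl and trh held 0. No list was tested, and the lists overlap.

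The sequence under the summits was AT-rich within a GC-richer frame. GC content within 100 bp of member summits was 37.5% ± 0.755, against 40.9% ± 0.0994 in windows centred 1000 bp to either side (SD, n = 4 lists). The difference was -3.40 ± 0.676 percentage points and had the same sign in 4 of 4 lists (exact permutation p = 0.125). In windows of 50 bp, GC content was 35.6% at the summit, 44.3% and 44.7% at 200 bp to either side, and 40.4% and 41.1% at 1000 bp, so the trough was flanked by shoulders. Other regions had 38.6% ± 0.717 at summits, and the difference from them was -1.07 ± 0.108 percentage points, lower at members in 4 of 4 lists (exact permutation p = 0.125). Their flanks, most of them near promoters, had 44.1% ± 0.228.

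The word ACAGTG, or CACTGT on the other strand, stood out among all 2080 words of 6 bases by its excess at summits. It was picked because it had the largest difference from the flanks, so its values are a description with no test. Within 100 bp of the summit 207 members (31.7%) held it, against 8.72% of flank windows, 7.27% of equal windows over every distal intronic base of the genome and 24.1% of all 2643 regions. In the single lists the share was 31.7%, 31.4%, 30.9% and 30.9% at members, against 9.19% ± 0.403 in flanks (SD, n = 4). The share was 23.4% ± 1.11 at all other regions, 27.7% ± 1.69 at promoter-proximal regions, 22.6% ± 1.28 at distal intergenic regions and 21.2% ± 1.93 at core promoter regions. Members were above each of these in all 4 lists. Members of several-region hosts held it in 32.1% of cases and those of other hosts in 31.1%. It was found in 34.0% of members in first introns and 26.9% of those in later introns, and in 39.1% of the 87 members with a mean percentile above 75, against 30.5% of the rest. By number of lists, it was found in 29.1% of members called in 4 lists, 37.4% of those in 3 and 30.5% of those in 2. Distal intronic regions called in 1 list only, which are no members, held it in 25.1% of 455 cases.

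The bases beside the word were uneven too. Among 251 matches at members, the base before the word was C or T in 40.2% and 38.6% and the base after it was G in 51.0%. Words that overlap it ranked high as well: CAGTGC was found in 24.3% of members, 8.94% of flanks and 17.3% of other regions, ACTGTA in 21.6%, 7.19% and 14.98%, and CAGTGG in 22.02%, 8.56% and 16.8%. Of words that do not overlap it, ATATTA led with 34.9% at members, 18.0% in flanks and 27.6% at other regions.

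The word lay more often on the 5′ side of the summit. Read along the strand that carries ACAGTG, 281 of the matches within 150 bp lay 5′ of the summit and 69 lay 3′ of it (80.3% on the 5′ side). The single lists gave 80.7% ± 1.09 (SD, n = 4), with a median offset of those matches of -71.25 ± 3.23 bp from the summit. Matches were most frequent between -80 and -60 bp, at 9.63 per 100 members, and numbered 1.22 per 100 in the 20 bp just after the summit. Promoter-proximal regions had 79.9% ± 0.683 on the 5′ side, distal intergenic regions 76.9% ± 3.62 and core promoter regions 67.3% ± 3.34, so the side was shared with other classes. The word did not follow the host's direction, since 129 of 251 matches (51.4%) lay on the host's coding strand. What sets the side was not tested. The matches nearest the summit are printed for the 12 strongest members of X, 2L, 3L and 3R that hold the word and were called in all 4 lists. Each run has 20 bases on either side, is written along the strand that carries ACAGTG, and has the word in capitals wherever it occurs.
norpA: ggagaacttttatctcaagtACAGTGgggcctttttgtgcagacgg
Raf: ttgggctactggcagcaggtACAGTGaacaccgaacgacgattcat
Gug: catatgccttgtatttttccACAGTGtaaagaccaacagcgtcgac
tara: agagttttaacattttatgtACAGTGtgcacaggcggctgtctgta
NFAT: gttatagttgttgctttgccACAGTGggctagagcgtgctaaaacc
mnb: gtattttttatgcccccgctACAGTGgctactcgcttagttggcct
for: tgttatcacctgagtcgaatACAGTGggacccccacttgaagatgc
Csk: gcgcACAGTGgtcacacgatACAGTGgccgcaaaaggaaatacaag
Hr4: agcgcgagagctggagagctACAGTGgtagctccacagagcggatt
sr: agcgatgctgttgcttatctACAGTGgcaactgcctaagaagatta
CG32264: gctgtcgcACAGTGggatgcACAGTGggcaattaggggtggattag
Eip63E: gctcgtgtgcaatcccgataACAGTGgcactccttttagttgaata

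In 11 of these 12 the summit lay on the 3′ side, 24 to 92 bp from the middle of the word, and in the Gug region it lay 74 bp to the 5′ side. The printed runs are at chrX:4325045-4325090 on the minus strand for norpA, chrX:2297776-2297821 (minus) for Raf, chr3L:8458223-8458268 (minus) for Gug, chr3R:16237018-16237063 (minus) for tara, chrX:13640415-13640460 (plus) for NFAT and chrX:17880519-17880564 (minus) for mnb. The others are at chr2L:3655704-3655749 (plus) for for, chr3R:11649691-11649736 (minus) for Csk, chrX:1963842-1963887 (plus) for Hr4, chr3R:18125296-18125341 (minus) for sr, chr3L:3785134-3785179 (plus) for CG32264 and chr3L:3518040-3518085 (plus) for Eip63E. The Csk and CG32264 runs hold the word at 2 places.

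**Figure D5:**
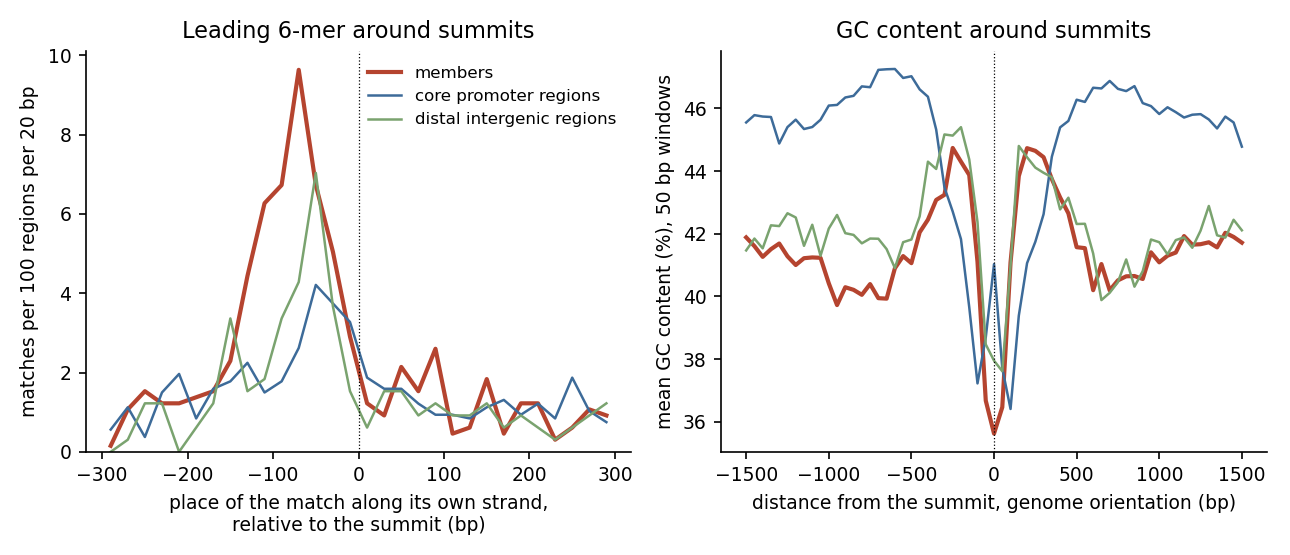
Left, matches of the leading 6-base word per 100 regions in 20 bp steps (y axis) by place relative to the summit, read along the word's own strand (x axis, bp); right, mean GC content (y axis, %, axis not from 0) around summits (x axis, bp). Members peak at 9.63 matches per 100 between -80 and -60 bp, and their GC content has its lowest value, 35.6%, at the summit.

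Consensus words of known factors were searched on both strands in the same windows. Of 20 such motifs, 5 (25%) were more frequent at member summits than in flanks in all 4 lists and 8 (40%) were less frequent in all 4. No adjusted p was below 0.192 (exact permutation test over 4 lists, Benjamini-Hochberg over the 20). The 5 were TATAAA of the TATA box (31.3% of members, 22.02% of flanks, 23.6% of windows over all distal intronic bases), the GATA word AGATAA (14.8%, 9.86% and 11.6%), the Twist E-box CATATG (9.33%, 8.26% and 6.12%), the Snail E-box CAGGTG (5.81%, 5.58% and 6.44%) and the Brinker word TGGCGCC (2.91%, 1.83% and 1.44%). TATAAA is itself AT-rich, as summits are, and the part of base composition in its share was not tested. Among all regions these 5 were found in 31.9%, 12.1%, 6.96%, 6.21% and 2.99%. In scan windows of 50 bp the Twist and Snail E-boxes were above the flanks in 2 of 4 lists each.

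The 8 motifs below the flanks were the Ets word CCGGAA (1.22% of members, 4.36% of flanks), the CA repeat CACACACA (2.91% and 6.73%), the GAGA word GAGAGAG (3.21% and 5.81%), the nuclear receptor word AGGTCA (2.91% and 5.35%), the Caudal word TTTATG (19.7% and 25.9%), the Su(H) word TGGGAA (11.5% and 12.1%), the Pho word GCCATNTT (2.29% and 3.59%) and the DREF word TATCGATA (0.153% and 0.459%). Against windows over all distal intronic bases, members were also lower for each of these words except GAGAGAG, which 2.65% of those windows held. N stands for any base. The other 7 did not hold the same side in all 4 lists: the homeodomain word TAATTA (16.8% and 13.9%), the Tailless word AAGTCA (10.2% and 10.3%), the Stat92E word TTCNNNGAA (6.73% and 7.03%), the AP-1 word TGANTCA (5.35% and 5.73%), the Scalloped word ACATTCC (2.14% and 2.06%), the Grainy head word ACCGGTT (0.306% and 0.688%) and the Zelda word CAGGTAG (1.53% and 1.53%). The Zelda word and the Snail E-box share the letters CAGGT, and the Caudal word and the reverse complement of TATAAA share TTTAT. All-region shares of these 15 ran from 0.795% for Grainy head to 21.0% for Caudal.

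The DREF word was rare at members, as it was outside core promoters in general. The word TATCGATA, bound by a factor of housekeeping promoters, was found in 0.153% of members, against 0.306% of distal intergenic regions, 1.06% of promoter-proximal regions, 9.26% of core promoter regions and 0.391% of windows over all distal intronic bases. Only 1 member held the word. Per list, members had 0.198% ± 0.0246 and other regions 4.76%, and members were lower in 4 of 4 lists (exact permutation, adjusted p = 0.167). With so few matches, that SD follows the number of member peaks in each list and does not measure a spread between replicates. A consensus match is a description of letters and shows no binding.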

How the data were processed

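ChIP-seq of Gug-eGFP was made in 4 biological replicates of 1 group, and no control sample was analysed here. Fragments came from sonicated chromatin in a size range of 200 to 800 bp, per the labels. The authors deposited peak lists on dm6 with a signal value and a summit for each peak. Per the file headers each replicate has its own thresholded and ranked lists. Which aligner and peak caller were used is not given in the sources used here. The deposited signal is comparable only within a list, so percentiles within lists were used. The mean percentile of a region is taken over the lists that called it.

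Summits within 200 bp were joined, and joins in 2 or more lists were kept. Genes, exons and introns came from Ensembl release 115 (13968 protein-coding genes) and sequences from the NCBI copy of dm6. Intron rank is the lowest over protein-coding transcripts. Distal intronic bases, the background for densities, are all bases that could hold a member. Summits were scanned within 100 bp and flanks in equal windows 1000 bp away. Values per list were compared by exact 2-sided sign-flip permutation tests over 4 replicates, whose smallest p is 0.125. With no read counts, depth per sample is unknown and no counting interval was given. Named members are the 20 with the highest mean percentile among those in all 4 lists, and named hosts are those with 5 or more members and Gug. In each gene list the 4 hosts with the most members and the 2 longest genes without one are named. Other genes named were chosen after their values were seen, as was the word ACAGTG. The members and lists were chosen with earlier results of these data known. Alternatives changed the joining distance, the number of lists, the TSS limit, the list set, the strength and length of lists, the transcript for rank and the scan window, and left out each replicate. Scripts used Python 3.11.15, NumPy 2.4.6, pandas 2.3.3, SciPy 1.17.1 and Matplotlib 3.10.9 and were tested on simulated data.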

Additional observations from a re-analysis of the deposited data

Results flagged for a closer look

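The 20 leading members and the other values with 4 replicates, 56 groups in all, were searched for a replicate far from the others, and 2 groups held one. Chance flags about 1 in 20 groups of this kind. In the CG32486 region replicate 2 had a percentile of 99.551, against 98.86 to 98.97 in the other 3 lists. In the CG9837 region replicate 1 had 90.4004, against 95.9 to 96.6 in the other 3 lists. Both regions stayed above the 90th percentile in all 4 lists.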

How the results depend on the processing

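Of 209 alternative values, 165 stayed within the limits set for them and 44 moved, and no result that answers a comparison changed direction. For results with a permutation test the limit was the side of a significance threshold, not a size. The smallest p of that test is 0.125, so the side could not change and staying says nothing about size. For example, the GC difference from other regions went from -1.07 to -3.05 within 50 bp of summits and was counted as staying. So was the signal difference, which went from -5.63 to -1.53 against distal intergenic regions alone. With at least 3 lists required there were 431 members (several-region hosts 73, median intron 11061 bp, 62.2% in all 4 lists, X ratio 1.98). With all 4 lists required there were 268 (220 hosts, 39 with several, 10387 bp, ACAGTG in 29.1%, 83.4% of matches on the 5′ side, X ratio 2.22). From the stronger 50% of each list there were 307 (252 hosts, 46 with several, 34.2%, 82.1%, X ratio 2.00). Lists cut to equal length gave 45.6% of members in all 4 lists and ACAGTG in 33.7%. The authors' largest set gave 1184 regions (690 hosts, 266 with several, 63.4% in first introns, GC difference from other regions -1.64, ACAGTG in 29.7%, 78.4%, X ratio 1.51). Their conservative set gave 64.2% in first introns, a signal difference of -3.64, a GC difference of -1.40, ACAGTG in 32.8% and an X ratio of 1.503. A TSS limit of 500 bp gave 31.6% of regions as distal intronic, 70.6% of them in first introns, with a median of 9910 bp for the introns around all members. A limit of 2000 bp gave 17.6%, 59.4% and 14886 bp, with ACAGTG in 28.8%. Rank by the longest transcript gave 45.4% in first introns and a median of 13851.5 bp for the introns around all members. Fewer or shorter lists hold fewer members by construction, and for the other shifts the cause was not tested. Without each replicate in turn, members numbered 495 to 573 (23.7% to 25.4% of regions), first introns held 66.1% to 68.1%, the median intron was 11313 to 12000 bp, hosts numbered 371 to 406 (94 to 118 with several), the signal difference was -6.48 to -4.37, the GC differences -1.13 to -0.923 from other regions and -3.64 to -3.04 from flanks, ACAGTG 31.8% to 32.3%, its 5′ side 80.6% to 82.1% and the X ratio 1.75 to 1.85. In scan windows of 50 bp the difference from flanks turned positive for DREF (0.00916 percentage points), Tailless (0.288) and AP-1 (0.0131). TATAAA and the GATA and Brinker words stayed above the flanks in all 4 lists there. The Scalloped and Stat92E words joined them, while the Twist and Snail E-boxes were above in 2 lists each. The Su(H), Pho and DREF words were below the flanks in 2 lists each, and the Grainy head word in all 4. The share in all 4 lists has no value where a list is left out or a set of the whole series is used. No paired analysis was possible because there is only 1 group. Depth is unknown, so a region absent from a list was not called there and may still be bound.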
